A study of Mus musculus with 2 samples.

Results

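Genes of blood and lymphatic endothelium were examined in total RNA of wild-type mouse tooth and skin. The members were Pecam1, Kdr, Tek, Tie1, Flt1, Flt4, Lyve1, Prox1, Emcn and Eng, taken as every non-control spot that carried one of these gene names. The rule matched gene names and used no measured value, although earlier results of these data were known when the genes were chosen. These 10 genes of 24323 named genes had 13 probes of 60 bases, printed in 23 of 59305 non-control spots on each array.

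There was 1 tooth array and 1 skin array, both from wild-type animals labelled as postnatal day 0, with no treatment named. The study's methods named the following day, and the labels were followed. How many animals gave RNA to an array, and which region the skin came from, is not given in the sources used here. Both samples were whole tissue, so the share of vessels in each is unknown, and fewer endothelial cells cannot be told apart from less RNA per cell. Since each tissue had 1 array, variation among animals is unknown, no difference could be tested and none has a replicate check.

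Endothelial cells line every vessel. VEGF receptors drive their growth, Tie receptors keep vessels stable, and endoglin passes on signals of the TGF-beta and BMP family. Lymphatic endothelium is set apart by the transcription factor Prox1, the VEGF-C receptor encoded by Flt4 and the hyaluronan receptor Lyve1. Vessels enter the dental papilla and surround the tooth germ while dentin and enamel form, and a vessel network supplies the dermis and the hair follicles.

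The probes themselves are shown first for the genes in which sequence bears on the reading. Tek and Tie1 encode sister receptors, and their probes align with each other. With the Tek probe set 3 bases into the Tie1 probe, 57 bases aligned and 39 of them (68.4%) were identical. Capitals mark the identical bases, and the first reading frame of both probes was free of stop codons.

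Tek, chr4:94540624-94540683 (mm9, plus strand): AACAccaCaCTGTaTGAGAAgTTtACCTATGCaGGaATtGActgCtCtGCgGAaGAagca
Tie1, chr4:118144132-118144191 (mm9, minus strand): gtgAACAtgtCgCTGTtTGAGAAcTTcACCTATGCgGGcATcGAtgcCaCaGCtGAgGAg

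Kdr and Flt1 had several probes, and those of Kdr gave different answers. The first 30 of the 60 bases of each are printed, with G and C in capitals.

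Kdr, probe with 1 spot, chr5:76330395-76330454 (mm9, minus strand): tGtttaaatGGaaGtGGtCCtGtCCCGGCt
Kdr, probe with 10 spots, chr5:76329309-76329368 (mm9, minus strand): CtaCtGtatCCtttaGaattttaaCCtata
Flt1, RefSeq transcript, chr5:148373791-148373850 (mm9, minus strand): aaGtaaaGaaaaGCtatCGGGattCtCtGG
Flt1, Ensembl transcript, chr5:148446872-148446931 (mm9, minus strand): GGaGGGtaCtGCCGttCCtGtGtGGtattt
Flt1, placental cDNA, chr5:148465976-148466035 (mm9, minus strand): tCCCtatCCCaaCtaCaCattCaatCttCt

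Most of the blood or pan-endothelial members had a higher signal in tooth, whereas Lyve1 had a higher signal in skin. A gene is called detected here where the extraction software judged its signal to be well above background. Of the 10 members, 8 were detected on at least 1 array. Of these, 5 (Tek, Tie1, Flt1, Emcn and Eng) were at least 2-fold higher in tooth and 1 (Lyve1) in skin. Over the 17409 named genes detected in the same way, 15.5% were at least 2-fold higher in tooth and 14.2% in skin, or 32.5% and 9.02% with the spike-in scaling described below. The median difference of the 8 genes was -1.84 (log2, skin minus tooth), against -0.04 over all genes detected. Pecam1 and Kdr stayed within 2-fold, and Flt4 and Prox1 were detected on neither array.

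All levels below are log2 signals relative to the 75th percentile of the same array, and all differences are skin minus tooth on that scale. That percentile was 428 intensity units in tooth and 276 in skin, a ratio of 1.55, whereas 8 spike-in transcripts differed by a median of -0.004 (log2) before scaling. Scaling to the spike-ins lowers every difference by 0.63. Positive differences smaller than this therefore turn negative, and negative differences keep their direction and grow in size. The error of a difference combines the errors the software gives for each array, as the root of their summed squares. It leaves out animals, dissection and labelling. The labels were checked by marker genes of each tissue. Amelx, Ambn and Dspp, which encode enamel and dentin proteins, were detected in tooth only, and the epidermal genes Krt1, Krt10 and Flg differed by at least 8.39 toward skin.

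**Figure D1:**
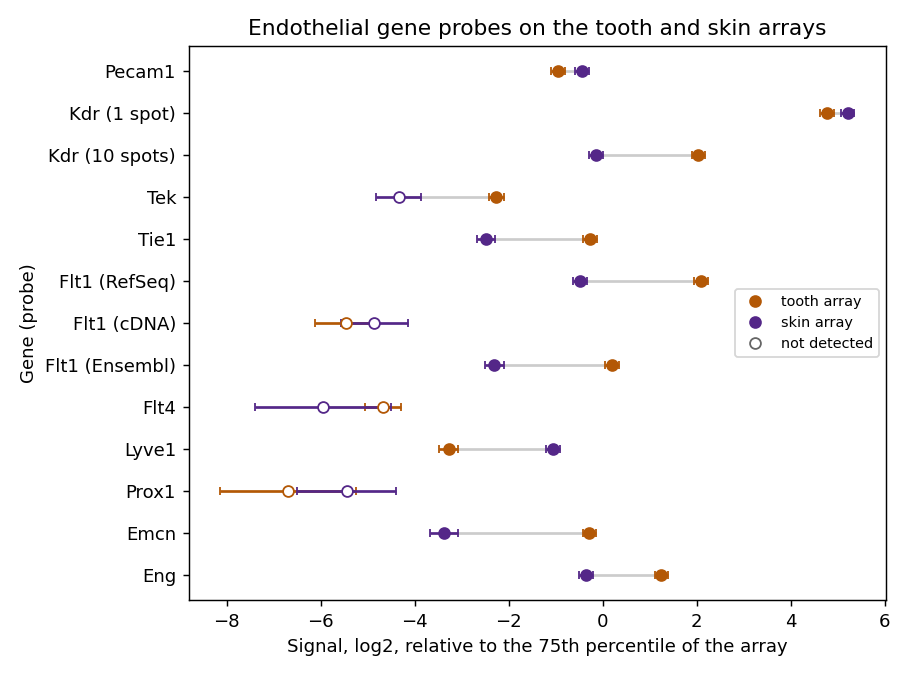
Signal of each of the 13 probes on the tooth (orange) and skin (purple) array, on the x axis as log2 relative to the array's 75th percentile, with 1 row per probe. Bars are the software's error for 1 array and open circles were not detected. Among probes detected on at least 1 array, the skin circle lies left of the tooth circle for Tie1, Emcn, Eng, Tek, 1 Kdr probe and 2 Flt1 probes, and right of it for Lyve1, Pecam1 and the other Kdr probe.

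Among the VEGF receptors, Flt1 encodes VEGFR1, which binds VEGF-A tightly and acts in part as a decoy. Its RefSeq probe had a signal of 1818 intensity units in tooth and 198 in skin. After scaling these were 2.09 and -0.48, a difference of -2.57 (error 0.21), or 5.93-fold. The Ensembl probe, read 490 and 55.8, gave nearly the same difference, -2.50 (error 0.25). The placental cDNA probe, 92.2 kb from the RefSeq probe, read 9.63 and 9.51 and was detected on neither array, so it has no fold.

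Kdr encodes VEGFR2, the main signalling receptor for VEGF-A in blood vessels. Its 2 probes gave opposite pictures. The probe with 10 spots read 1650 (lowest), 1745 (median) and 1899 (highest) in tooth, and 223, 245 and 293 in skin, so no spot of the arrays overlapped. Its difference was -2.19 (error 0.21), a 4.55-fold higher value in tooth, with an SD among spots of 0.05 in tooth and 0.15 in skin. The other probe, 1086 bases away on the same transcript, read 11729 in tooth and 10208 in skin in its single spot, a difference of 0.43 (error 0.20) that turned to -0.19 under spike-in scaling.

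By rule the brighter probe stands for a gene, so Kdr counted as within 2-fold, and with the probe of 10 spots 6 members were at least 2-fold higher in tooth. The gap of 2.62 between the Kdr differences lay at percentile 98.8 among 3241 genes that had 2 probes detected on both arrays, whose median gap was 0.26. The brighter probe had 55.0% G and C and the other 35.0%. The part of base composition in the disagreement was not tested. The mean of both probes gave -0.88.

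**Figure D2:**
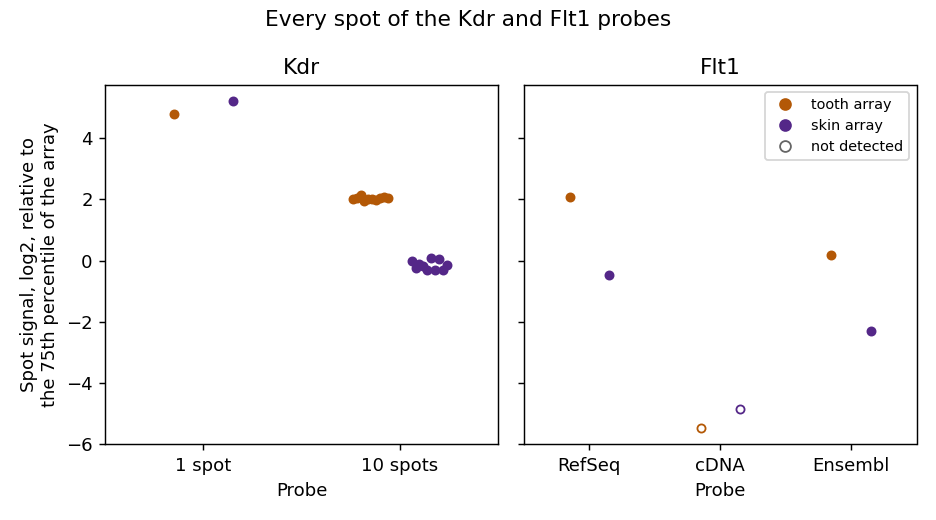
Every spot of the Kdr probes (left) and Flt1 probes (right), on the y axis as log2 signal relative to the array's 75th percentile, in tooth (orange) and skin (purple). Open circles were not detected. The 10-spot Kdr probe separates the arrays by 2.19, the 1-spot Kdr probe by 0.43 in the other direction, and the 2 detected Flt1 probes by 2.57 and 2.50.

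The Tie receptors were both higher in tooth. Tie1, an orphan receptor that modulates Tek, read 355 in tooth and 49.3 in skin. The scaled levels of -0.27 and -2.49 differed by -2.22 (error 0.24), or 4.65-fold. Tek, the receptor for angiopoietins, read 89.2 in tooth and 13.6 in skin, where its spot was not detected. Its measured levels were -2.26 and -4.35, which bounds the excess in tooth at 2.77-fold or more. Under normexp background correction, described below, the Tek difference was -0.43, smaller than this bound. The matching probes of these sister genes, printed above, gave the same direction.

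The remaining blood or pan-endothelial members, which encode surface proteins, did not move alike. Emcn encodes endomucin, a sialomucin of capillaries and veins, and had the largest difference toward tooth among the members measured on both arrays. It read 352 in tooth and 26.5 in skin (levels -0.28 and -3.38), a difference of -3.10 (error 0.33), or 8.55-fold. Its skin level lay near the lowest detected on that array (-3.73). Under normexp background correction, described below, the Emcn difference was -1.66, and that of Flt1 (-2.35) was larger. Eng, which encodes endoglin, read 1016 and 217 (levels 1.25 and -0.35), a difference of -1.60 (error 0.21). Pecam1 encodes the junction protein CD31, which platelets and leukocytes also carry. Its 2 spots read 219 and 225 in tooth and 191 and 216 in skin, so before scaling the tooth spots were slightly higher. After scaling, Pecam1 was 0.50 higher in skin (levels -0.94 and -0.44, error 0.21), while spike-in scaling turned the difference to -0.13. In Emcn, Flt1, Tie1 and Eng the difference lay between percentiles 1.34 and 6.17 of all 15271 genes measured on both arrays, and in Pecam1 at percentile 77.7.

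Lyve1 was the member at least 2-fold higher in skin. Its probe (chr7:117994171-117994230, mm9) read 44.1 in tooth and 132 in skin, levels of -3.28 and -1.06. The difference was 2.22 (error 0.25), or 4.66-fold, at percentile 95.8. Even before scaling, the skin signal was 3.0 times that in tooth. The other lymphatic members gave no fold. Flt4 read 16.7 in tooth, and in skin the software had replaced its value with a surrogate. Prox1 was at a surrogate in tooth and read 6.32 in skin. Of the 3 lymphatic members, Lyve1 was the 1 with a measured difference. Besides lymphatic endothelium, a class of tissue macrophages expresses it.

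A scaling by 1 factor per array cancels in the difference between 2 genes' differences. On this footing Lyve1 stood 4.30 (log2) above the median of the 7 blood or pan-endothelial members, called blood members for short. The value was the same under 75th percentile, median and spike-in scaling. As pan-endothelial genes are among the 7, this does not set blood vessels against lymphatics. The median of the 7 is the measured value of Tek, which was not detected in skin. With Tek at its bound the value was 3.81. The members spanned 5.32 between Emcn and Lyve1, and no scaling by a single factor brings them together. Normexp background correction, which here adds a constant to every signal, gave 2.85. With Pecam1 at 2.34 above the member median and Emcn at 1.26 below it, the blood members themselves also differed by more than the errors of the software.

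**Figure D3:**
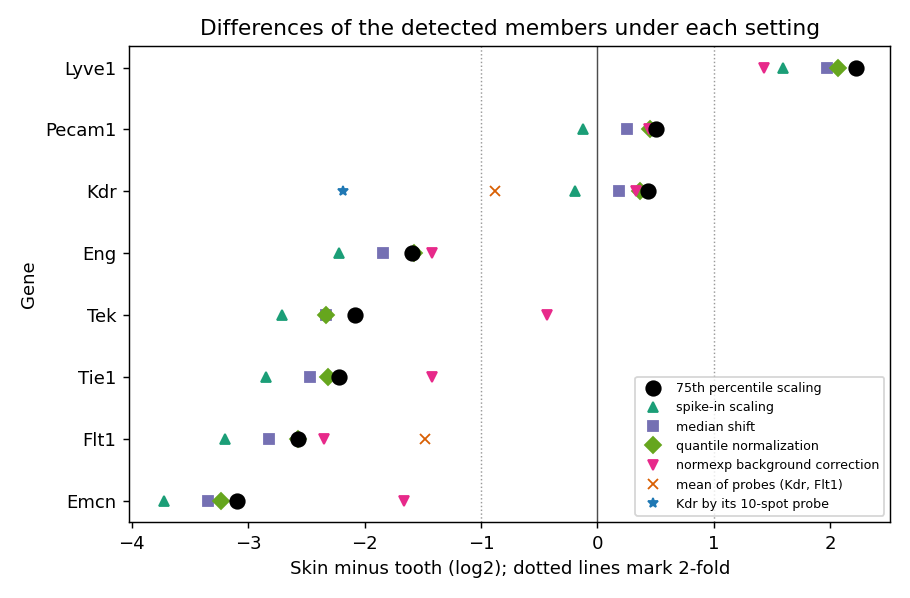
Skin minus tooth difference (x axis, log2) of the 8 detected members, 1 row per gene, under the 75th percentile scaling (black) and other settings. Emcn, Flt1, Tie1, Tek and Eng are below 0 and Lyve1 above 0 under every setting drawn, Pecam1 and Kdr turn sign with spike-in scaling, and Kdr is at -2.19 by its 10-spot probe.

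Other endothelial genes were taken from a list of 28 that held no member. Of these, 27 were detected, 24 had a higher value in tooth and 3 in skin. Among the 3, Mcam was at 0.35 and turned to -0.27 under spike-in scaling. The 2-fold mark was passed by 20 toward tooth and 2 toward skin, with a median of -1.56, or -1.40 with dim values at their bound. The background for these counts and for those of each list below is 15.5% (tooth) and 14.2% (skin) of all genes, 32.5% and 9.02% under spike-in scaling, and 9.60% and 10.01% under normexp correction. S1pr1, a sphingosine 1-phosphate receptor, had the largest difference (levels 1.61 in tooth and -2.24 in skin, -3.85). Cdh5, which encodes the VE-cadherin of endothelial junctions, differed by -2.70 (levels 1.30 and -1.40), and Cd93, a surface glycoprotein, by -2.53 (levels 3.42 and 0.89). The genes at least 2-fold higher in skin were Sox7 (2.35) and Sox18 (1.27), singled out after their values were seen. Both encode SoxF transcription factors, and the other member of that family, Sox17, differed by -1.01, while its other probe, detected in tooth only, had measured levels of -1.12 and -4.86 (-3.75). Calcrl was detected on neither array. Under normexp correction 15 of the 27 genes were at least 2-fold higher in tooth, and under spike-in scaling 24.

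Among the ligands, that with the largest measured difference binds Tek. Angpt1, the activating ligand of Tek, was at 1.62 in tooth and not detected in skin, and so was at least 40.9-fold higher in tooth. Angpt4, another ligand of Tek, was at -2.07 in tooth and not detected in skin, which puts it at least 3.16-fold higher in tooth. Under normexp correction the differences were smaller than these bounds, -3.65 for Angpt1 and -0.49 for Angpt4. Angpt2, which can oppose Angpt1 and is made by endothelial cells, differed by -1.35 (levels -0.72 and -2.07).

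Ligands of the VEGF receptors ran both ways. Vegfa was higher in tooth by its brighter probe (levels 1.64 and -0.20, difference -1.84), and its other probe gave -0.76. Vegfb (-0.54), Vegfc (-0.36) and Pgf (-0.47) stayed within 2-fold, but were at -1.17, -0.99 and -1.10 under spike-in scaling. Vegfd, a ligand of the receptor encoded by Flt4, was higher in skin, with levels of -2.21 and 0.89 and a difference of 3.10. Of the endoglin pathway ligands, Bmp10 was low but detected on both arrays (levels -4.23 and -2.67, difference 1.55), and Gdf2 was detected on neither. Over the list, 9 of 10 ligands were detected, 4 at least 2-fold higher in tooth and 2 in skin (6 and 1 under spike-in scaling, 2 and 1 under normexp correction), and the median was -0.54.

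Of the 5 receptor partners, 1 was at least 2-fold apart, toward tooth, which is near the background share. Acvrl1, the type I receptor that works with endoglin, had levels of 0.89 (tooth) and 0.57 (skin), a difference of -0.32. Bmpr2, a type II receptor of BMPs, differed by 0.37 (levels 1.25 and 1.62). The VEGF co-receptors Nrp1 and Nrp2 differed by -0.72 and 0.48, and the other probe of Nrp2 gave 1.17. The value for Bmpr2 and that for Nrp2 by its brighter probe turned negative under spike-in scaling (-0.25 and -0.15). Ptprb, the phosphatase that acts on Tek, was higher in tooth (levels 1.36 and -0.80, difference -2.17). It was the partner past 2-fold, and it also belongs to the list of 28.

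Genes of arteries and veins were mostly higher in tooth as well. Of 8 artery genes, 6 were at least 2-fold higher in tooth by measured values and none in skin, with a median of -1.60. The median was -1.18 with dim values at their bound, where 5 genes passed 2-fold, and -0.54 under normexp correction, where 3 did. Hey2, singled out after its value was seen, was among the 6 and had a bound that gave no fold. Hey1, a target of Notch signalling, differed by -4.02 (levels 4.25 and 0.24), Notch4 by -2.52 and Gja5, a connexin of arteries, by -1.70. The other probes of Gja5 gave 0.53 and, detected in tooth only, -0.12. Of 3 vein genes, Nr2f2 (-2.76) and Aplnr (-2.24) were higher in tooth, and Ephb4 was within 2-fold (0.30, and -0.33 under spike-in scaling). Outside vessels, mesenchyme also expresses Hey1 and Nr2f2.

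**Figure D4:**
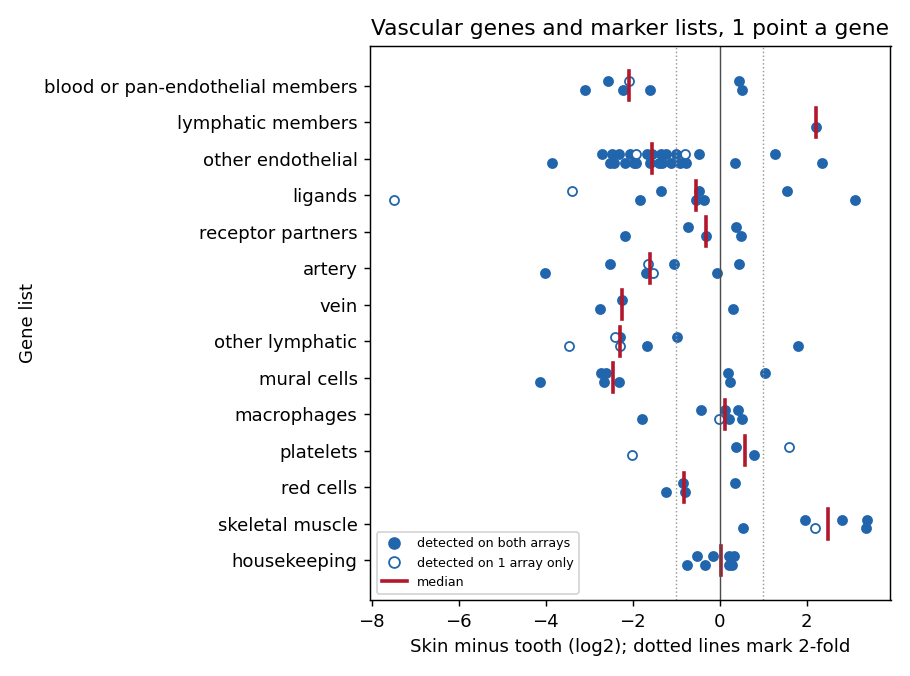
Skin minus tooth difference (x axis, log2) of every detected gene of each list, 1 point per gene, with the list's median as a red bar. Open points were detected on 1 array only. The medians of the blood or pan-endothelial members (-2.08), other endothelial genes (-1.56), artery genes (-1.60) and mural cells (-2.46) lie below 0. That of skeletal muscle (2.50) lies above 0, and that of housekeeping genes at 0.02.

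Of the further lymphatic genes detected, Mmrn1 went toward skin like Lyve1, and the rest had higher values in tooth. Of 9 on the list, 7 were detected, and 5 were at least 2-fold higher in tooth and 1 in skin (median -2.29, or -1.68 with dim values at their bound). Mmrn1, a secreted protein of lymphatic endothelium and platelets, was the gene higher in skin (levels -3.40 and -1.60, difference 1.80). Its other probe was not detected in either tissue. The other 3 genes measured on both arrays were Pdpn (-2.29), Svep1 (-1.68) and Itga9 (-0.99). Pdpn encodes podoplanin, which mesenchymal and epithelial cells also make. The part of lymphatic endothelium in the values of this list was not tested. Adamts3 and Ccbe1, which serve to activate VEGF-C, were detected in tooth alone, with bounds of at least 2.97-fold and 4.79-fold. Under normexp correction their differences were smaller, -0.62 and -0.91. The other 2 probes of Ccbe1 were also detected in tooth alone and gave smaller measured differences, -1.01 and -0.45. Reln was detected on neither array, and Ccl21a was not found under that name.

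Markers of cells that accompany or resemble endothelium were read beside these results. Mural cells, the pericytes and smooth muscle of vessel walls, were detected in 8 of 8 genes, 5 of them at least 2-fold higher in tooth and 1 in skin (5 and 0 under spike-in scaling). Rgs5, a pericyte marker, differed by -4.12 (levels 1.03 and -3.09), Acta2 by -2.74 and Abcc9 by -2.67, whereas Notch3 was 1.03 higher in skin (0.40 under spike-in scaling). How far the values of this list come from mural cells was not tested. The summed signal of the mural list, in multiples of the array's 75th percentile, was 38.3 in tooth and 19.9 in skin. For the 27 other endothelial genes detected it was 138.8 and 72.95. The brightest of these in skin was Mcam (levels 4.69 and 5.04, difference 0.35), whose other probe gave -0.75. For the 8 detected members the summed signal ran the other way, 36.5 and 40.0. In that sum the bright 1-spot probe of Kdr stands for its gene.

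Macrophage genes were read because Lyve1 and Pecam1 are also found on such cells. Of 8 genes, 7 were detected, with a median of 0.13, 1 at least 2-fold higher in tooth and none in skin, near the background share, and a summed signal of 62.8 in tooth and 57.3 in skin. Under spike-in scaling all 7 were higher in tooth, with a median of -0.50. Cd68 differed by -1.79, Adgre1 by 0.52 and Csf1r by -0.43. Mrc1, found on the macrophages that also carry Lyve1, was at -0.45 and -0.03 (0.42). Cd163 was detected on neither array. The part of macrophages in the difference of Lyve1 was not tested.

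Blood itself was read from red cells and platelets. The 4 red cell genes reported were all detected, 1 at least 2-fold higher in tooth and none in skin, with a median of -0.82 and a summed signal of 146 in tooth and 70.7 in skin. Hba-a1 differed by -1.23, Alas2 by -0.84 and Hbb-b1 by -0.80, and globin genes have close copies whose signal they can share. All 4 platelet genes were detected (summed signal 3.17 and 5.32, median 0.57). Pf4 was higher in skin by 0.78 and Gp1bb by 0.37 (0.15 and -0.26 under spike-in scaling). Itga2b was detected in skin alone and was at least 3.02-fold higher there, but its difference was 0.93 under normexp correction. Gp9 was detected in tooth alone, with a bound that gave no fold. The part of platelets in Pecam1 and Mmrn1, which platelets carry, was not tested.

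Skeletal muscle genes, which mark tissue attached to skin, were detected in 6 of 6 cases, and 5 were at least 2-fold higher in skin (summed signal 5.50 in tooth and 31.6 in skin). Ckm (3.38), Myh3 (3.35) and Acta1 (2.80) had the largest differences. Housekeeping genes, 8 in number, ranged from -0.76 to 0.33 (median 0.02, or -0.60 under spike-in scaling).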

How the data were processed

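Total RNA was labelled with Cy3 by a low-input kit and hybridised to Agilent mouse 8x60K arrays, 1 per tissue. The deposited values of each spot are linear intensities, made per the file headers with Agilent Feature Extraction 10.7.3.1, with background subtracted, trends removed and very dim values replaced by surrogates (25.0% of spots in tooth, 27.7% in skin). The authors also deposited a table of ratios, each the processed intensity divided by 430.7 (tooth) or 274.5 (skin). The study's methods name GeneSpring and a percentile shift. Coordinates are those of the probes in mm9, and the exon under a probe was not analysed here.

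Outlier spots were left out (0 among the members on both arrays), spots of a probe were averaged as log2, and each array's 75th percentile over 55675 non-control probes was subtracted. No spot was saturated. A probe counted as detected if the software's call of well above background held for over 50% of its spots (56.7% of probes in tooth, 52.5% in skin). The brightest probe stood for a gene. A gene dim on 1 array has a bound. It was set against the lowest detected signal of that array (-4.52 in tooth, -3.73 in skin) or its own value if higher. Bounds hold for this processing and not under normexp correction. List medians and counts used the value as measured. Names came from RefSeq (GRCm38.p6) for 82.1% of 33182 named probes. The SD among spots had a median of 0.08 in tooth and 0.09 in skin. The number of arrays limits the precision. No test was run. The scaling was run on simulated data in which the arrays differed by a constant and the added changes went equally in each direction. That setting cannot decide between the 75th percentile and the spike-ins.

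Named are all members, ligands and receptor partners, and in each other list up to 3 genes with the largest difference measured on both arrays, plus markers not detected, of which 1 is not reported here. Sox7, Sox17, Sox18, Mcam, Itga9, Adamts3, Ccbe1, Notch3, Mrc1, Itgam, Hey2, Itga2b and Gp9 lie outside this rule. They were chosen after their values were seen. The members and lists were chosen with earlier results of these data known. The alternatives were spike-in, median and quantile scaling, normexp background correction (limma 3.58.1, offset 50), other rules for probes and dim values, and the deposited table. Python 3.11.15 was used.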

Additional observations from a re-analysis of the deposited data

How the results depend on the processing

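With 1 array per tissue no replicate could be left out. The count of members at least 2-fold higher in tooth was 5 and ranged from 4 to 6 over the alternatives. It was 6 with Kdr by its probe of 10 spots, and 6 without a filter, where Flt4 entered although not detected. The count in skin was 1, and 2 without a filter, where Prox1 entered although not detected. The median difference of the members (-1.84) was -2.47 with spike-in scaling, -2.09 with a median shift, -0.93 with normexp correction, -1.54 with the mean of probes, -1.53 with dim values at their bound, -1.60 over genes detected on both arrays and -1.44 without a filter. With Kdr by its probe of 10 spots, an alternative chosen after seeing the data, it was -2.13. The lymphatic minus blood difference (4.30), which rests on Lyve1 alone where a filter was used, was 2.85 with normexp correction, 3.81 with the mean of probes or with dim values at their bound, 4.12 over genes detected on both arrays and 3.33 without a filter. Tek, dim in skin, was at -0.43 with normexp correction, and Emcn at -1.66. Some other lists lost genes at least 2-fold higher in tooth. With normexp correction the counts fell from 4 to 2 (ligands), from 6 to 3 (artery) and from 5 to 2 (other lymphatic). Over genes detected on both arrays fewer genes were counted. There the counts went from 4 of 9 to 2 of 7 (ligands) and from 5 of 7 to 2 of 4 (other lymphatic). The background toward tooth in that setting was 12.3%. With spike-in scaling the counts toward tooth rose from 1 to 2 (receptor partners, macrophages), from 1 to 3 (red cells, also with a median shift) and from 0 to 2 (housekeeping). Spike-in scaling moved the median of all probes by -0.63 and the median shift by -0.25. Quantile normalization and the deposited table left the counts, the median and the lymphatic minus blood difference of the members within the spot scatter or a count ratio of 1.5, but quantile normalization moved Tek to -2.33, Lyve1 to 2.06 and Emcn to -3.23. No paired analysis was possible because each group has 1 array.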
